A study of Ictidomys tridecemlineatus with 31 samples.

Results

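The proximal tubule secretes organic anions and cations with a small set of carriers, and 7 of 9 such genes were measured in kidneys of hibernating 13-lined ground squirrels. The members were chosen by name. They are Slc22a6, Slc22a8, Slc22a7, Slc22a2, Slc22a5, Slco4c1, Abcc2, Abcc4 and Slc47a1, and each symbol was looked up among the 12863 genes of the table. Slc22a7 and Slco4c1 were not found there and were not analysed here. Each of the other 7 had 1 row, Slc47a1 under the symbol SLC47A1_like, whose identifier is that of Slc47a1 in the RefSeq annotation.

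RNA was sequenced from a fragment of each of 31 kidneys, 1 per animal and each animal sampled once, in 6 states of the hibernation year. Summer active (SA, 5 animals) squirrels were warm and fattening. Interbout aroused (IBA, 5) animals had rewarmed fully between torpor bouts, entrance (Ent, 5) animals were cooling into the next bout, early arousing (EAr, 5) animals had begun to rewarm at the end of a bout, and late arousing (LAr, 6) animals were farther along in that rewarming. Spring dark (SpD, 5) animals stayed warm after their last bout and were still in the hibernaculum. The squirrels came from a captive colony or a commercial supplier, carried implanted temperature devices and were perfused with cold buffer before dissection. Ages, and the part of the kidney each fragment came from, are not given in the sources used here. There were 14 males and 17 females, with both sexes in every state. Experiment 1 (9 animals, 3 each of IBA, Ent and SpD, Illumina TruSeq kit) and experiment 2 (22 animals, Nugen kit) used different library kits, so SA, EAr and LAr came from experiment 2 alone.

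Each value is a batch-corrected rlog value, a normalized count on the log2 scale, so a difference of 1 is a doubling. Counts and depths are not part of the table, and the precision given is that of the spread between animals. Values are compared between animals for 1 gene at a time and not between genes, since they are not scaled by transcript length.

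Secretion across the proximal tubule cell takes 2 steps. On the blood side, OAT1 (Slc22a6) and OAT3 (Slc22a8) take up organic anions such as urate, uremic toxins and many drugs in exchange for dicarboxylates, which the sodium-dicarboxylate carrier Slc13a3 returns to the cell on the sodium gradient. OCT2 (Slc22a2) takes up organic cations, creatinine among them, driven by the membrane voltage. On the lumen side, MRP2 (Abcc2) and MRP4 (Abcc4) are ATP-driven pumps for organic anions and conjugates, and MATE1 (Slc47a1) exports cations in exchange for protons. OCTN2 (Slc22a5), also on the lumen side, recovers carnitine, which fatty acid oxidation needs. OAT1 and OAT3 are widely used as markers of the proximal tubule.

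No other tissue was measured, so the markers do not test the label of the tissue. Of 20 proximal tubule markers, 19 were in the table, and their mean per animal lay between 12.82 and 14.69 in the 29 animals of the main set. K113 (LAr) and K137 (SA) were left out of that set, as they were in the tests of the study. In K113 the inner medulla list (Slc14a2, Slc5a3 and Akr1b1) stood at 13.47, against 9.75 to 10.07 in the other 5 LAr animals, and its proximal tubule list at 13.12, against 13.80 to 14.19. In K137 the inner medulla list stood at 14.41, against 9.98 to 11.95 in the other 4 SA animals, and the proximal tubule list at 13.53, against 14.37 to 14.69. The injury gene Clu (clusterin) was 2.83 above the mean of the other LAr animals in K113 and 2.68 above that of the other SA animals in K137. K130 (SpD), which was kept in the main set, had the lowest proximal tubule list of the 29 animals, 12.82 against 13.97 to 14.47 in the other SpD animals, with a difference from their mean of -2.54 for the distal convoluted tubule marker Slc12a3 and of 0.97 for the loop of Henle list.

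The transporters moved with these lists. K113 and K137 were each below every other animal of their state for 6 of the 7 transporters, with differences from their mean of -1.14 (Abcc2) to -0.80 (Slc22a5) in K113 and of -1.41 (Slc22a8) to -0.55 (Slc47a1) in K137. The exception was Abcc4, which at 11.37 in K113 and 12.16 in K137 was above every other animal of the state. K130 was below the other 4 SpD animals for Slc22a8 (12.27 against 13.50 to 14.75), with differences from their mean of -1.74 for Slc22a2, -1.43 for Slc22a6, -1.39 for Slc47a1 and -0.90 for Abcc4, and within their range for Slc22a5 and Abcc2. The injury gene Lcn2 was 2.33, 1.75 and 1.54 higher in K113, K137 and K130 than in the others of their states, whereas Havcr1 was within the range of the others in K113 and K130 and below it in K137. The whole injury list was above the others in K113 (11.90 against 10.75 to 11.21) and K130 (10.96 against 10.36 to 10.59). In K137 it was within their range (11.45 against 10.72 to 11.65). The study found no signs of progressing injury in K113 and K137 and describes them as apparent timing variants. It also names both as extreme in the apparent variation of cell types, estimated from the RNA, among animals of their states. In bulk RNA, fewer tubule cells in a fragment and less transcript per cell cannot be told apart.

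**Figure D1:**
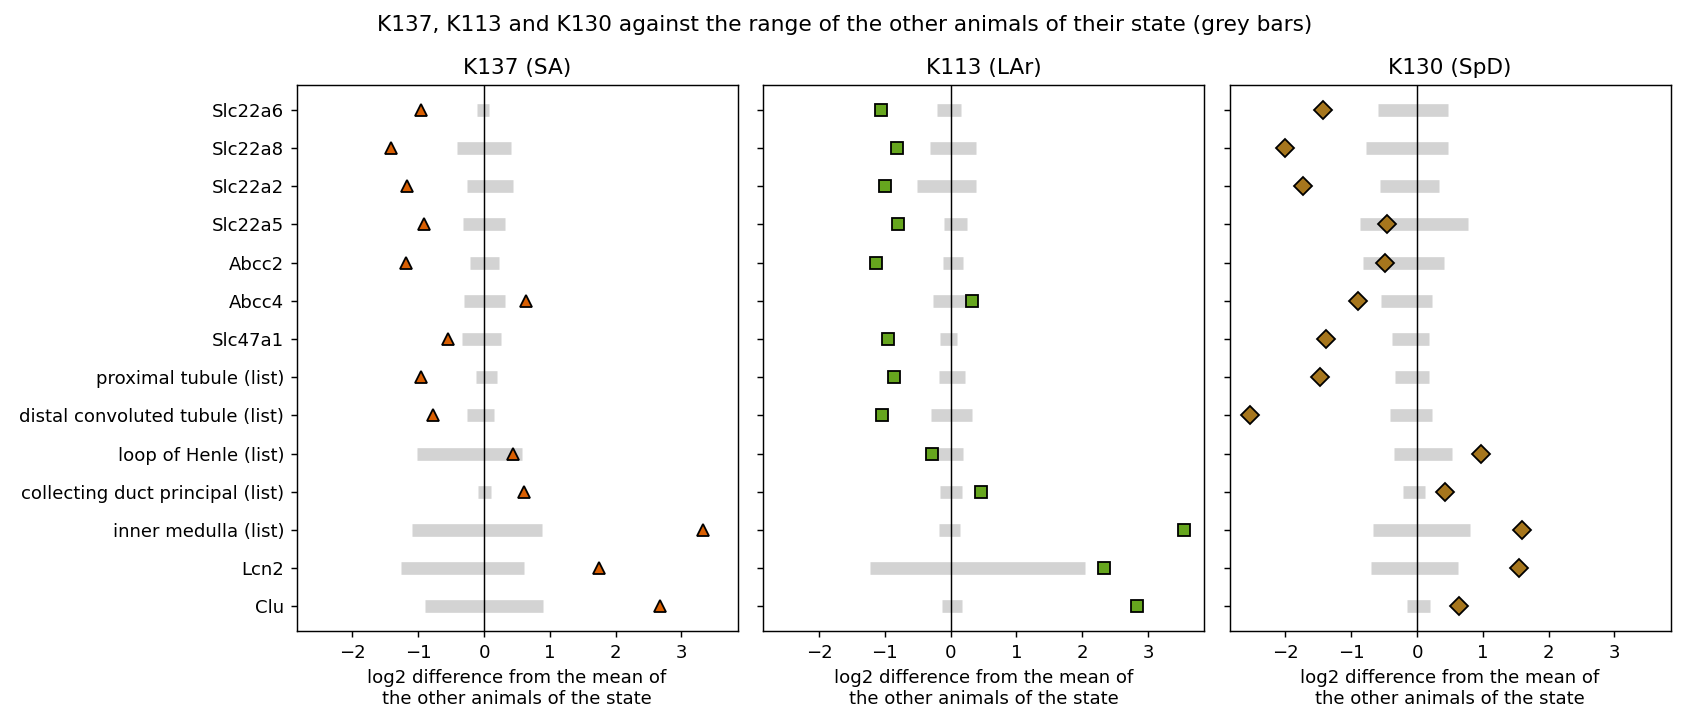
Difference of K137, K113 and K130 from the mean of the other animals of the same state on the log2 scale (x axis), for the 7 transporters, 5 marker lists and 2 injury genes (rows). Grey bars span the other animals, 4 for SA, 5 for LAr and 4 for SpD, and only Abcc4 in K113 and K137 lies above the bar among the transporters.

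Across the 6 states, 2 of the 7 transporters differed in the 29 animals (limma F test with state, sex and library kit as terms, Benjamini-Hochberg adjustment over all genes, adjusted p under 0.05). They were Abcc2 (adjusted p = 0.00701) and Abcc4 (adjusted p = 0.0260). Of all genes in the table, 46.1% passed, so the share among the transporters was below the background. Slc22a5 (adjusted p = 0.0539) and Slc22a6 (adjusted p = 0.0542) lay just outside the threshold, and Slc22a8, Slc22a2 and Slc47a1 had adjusted p of 0.127, 0.157 and 0.278. At the threshold of 0.001 that the study used, no transporter passed, against 9.34% of all genes, with 4 of the 7 at an unadjusted p under 0.05. Without K130 as well, in 28 animals, Slc22a2 passed with Abcc2 and Abcc4 (adjusted p = 0.0246, 0.0196 and 0.00755), and in all 31 animals Abcc2 and Abcc4 passed (adjusted p = 0.0432 and 0.0251).

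The transporters did not share 1 order of states in the 29 animals. Mean Slc22a6, Slc22a8, Slc22a2 and Slc22a5 were highest in SA, whereas mean Abcc2 and Abcc4 were highest in IBA and mean Slc47a1 in EAr. The lowest mean was that of IBA for Slc22a8, Slc22a2 and Slc47a1, of SpD for Slc22a6, Slc22a5 and Abcc2, and of Ent for Abcc4. With K113 and K137 included, the highest mean was that of EAr for Slc22a6 and Slc22a5 and of SA for Abcc4, and the lowest of Slc22a2 was in LAr. Without K130 the lowest of Slc22a6 was in IBA. For every transporter the ranges of states next to each other in its order overlapped.

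**Figure D2:**
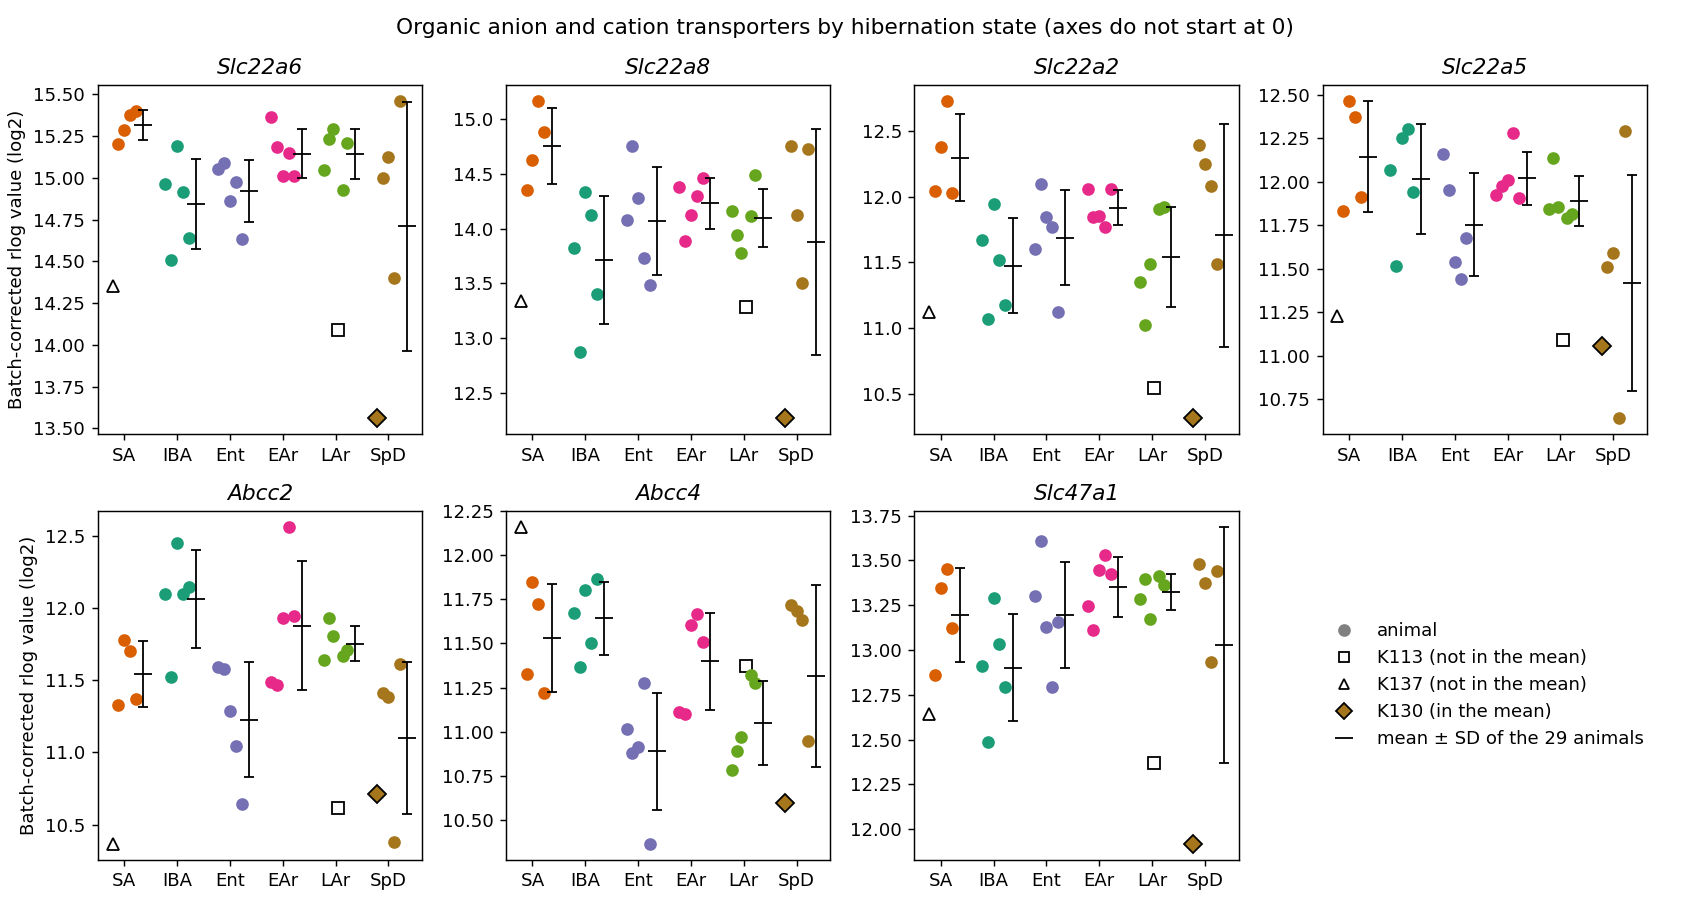
Batch-corrected rlog value on the log2 scale (y axis, not starting at 0) of each animal by state (x axis), 1 panel per transporter, with the mean ± SD of the 29 animals in black. In the 29 animals SA lies above IBA without overlap for Slc22a6, Slc22a8 and Slc22a2, while K137 falls below the other SA animals there. IBA lies above Ent without overlap for Abcc4, and K130 is the lowest of the 29 animals in the panels of Slc22a6, Slc22a8, Slc22a2 and Slc47a1.

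The uptake carriers of the blood side were lower in IBA than in SA, the comparison that spans the onset of hibernation. OAT3 (Slc22a8) stood at 14.35, 14.62, 14.88 and 15.16 in the SA animals and at 12.88, 13.40, 13.82, 14.12 and 14.34 in the IBA animals. Without K137, the highest IBA animal lay just under the lowest SA animal, so these groups did not overlap. In the fit Slc22a8 was lower in IBA (log2 difference -1.27, SE 0.40, 0.414 times, adjusted p = 0.0237).

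OAT1 (Slc22a6) was at 15.20, 15.29, 15.38 and 15.40 in SA and at 14.51, 14.64, 14.92, 14.97 and 15.19 in IBA. These groups also did not overlap, by a margin smaller than the spread within either. Its fitted difference was -0.69 (SE 0.24, 0.621 times, adjusted p = 0.0399). Slc22a6 and Slc22a8 are neighbours on the chromosome in the RefSeq annotation and belong to 1 gene family.

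OCT2 (Slc22a2) was at 12.03, 12.04, 12.38 and 12.73 in SA and at 11.07, 11.17, 11.52, 11.67 and 11.94 in IBA, again without overlap. It was lower in IBA by a fitted difference of -0.94 (SE 0.33, 0.522 times, adjusted p = 0.0440). These 3 of the 7 transporters passed in this direction, against 12.5% of all genes, and the median difference of the 7 was -0.42 against 0.03 over all genes. MATE1 (Slc47a1), the cation exporter opposite OCT2, had a difference of -0.42 (adjusted p = 0.236), OCTN2 (Slc22a5) of -0.25 (adjusted p = 0.483), MRP4 (Abcc4) of 0.05 (adjusted p = 0.905) and MRP2 (Abcc2) of 0.46 (adjusted p = 0.213).

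The 3 calls rested on few animals. With K137 and K113 back in the fit, where K137 had 13.34 for Slc22a8, 14.35 for Slc22a6 and 11.12 for Slc22a2, all 3 kept their direction and lost their call (differences of -0.999, -0.48 and -0.69, adjusted p = 0.123, 0.285 and 0.223). With K137 counted, the SA and IBA ranges overlapped for all 3. How many of all genes have no overlap in this comparison was not counted. K130 belongs to neither group and enters through the sex and library kit terms. In the 28 animals without K113, K137 and K130, all 3 were called with smaller differences (-1.01, -0.53 and -0.71, adjusted p = 0.0193, 0.0365 and 0.0390). In the 30 animals without K130 alone, none of the 3 was called (-0.76, -0.34 and -0.49, adjusted p = 0.165, 0.415 and 0.320). With 1 of the 9 animals left out in turn, 0 to 3 were called, all 3 only without K171 (IBA) and none without K104 (IBA) or K140 (SA). Since the SA animals come from 1 library kit, the fit was also made with no kit term, where Slc22a6 lost its call (-0.49, adjusted p = 0.124) and Slc22a8 (-1.03, adjusted p = 0.0441) and Slc22a2 (-0.83, adjusted p = 0.0470) were called.

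The proximal tubule list moved the same way. Its mean lay between 14.37 and 14.69 in SA and between 13.24 and 14.01 in IBA. All 19 markers had a negative difference and 10 of them passed, against 12.5% of all genes called lower. The S3 segment list had 3 of 5 markers lower. The injury list had 1 of 6 higher, Havcr1 (KIM-1, difference of 1.31, adjusted p = 0.0326), against 1337 of 12863 genes called higher. Of 16 markers of other nephron segments, endothelium, fibroblasts, macrophages and inner medulla, none passed in this comparison in limma, and 1 was at an unadjusted p under 0.05. On values that were centered in each animal on the mean of the proximal tubule list, the median of all genes moved to 1.03. On that scale Slc22a8 was at -0.27 (adjusted p = 0.243), Slc22a2 at 0.07 (adjusted p = 0.774) and Slc22a6 at 0.32 (adjusted p = 0.105), each below that median. Of all genes, 88.5% were called on that scale. Slc22a5 (0.76) and Slc47a1 (0.59) were called higher in IBA there but lay below the median of all genes. Abcc4 (1.05) and Abcc2 (1.46) were also called, Abcc4 close to that median and Abcc2 above it.

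**Figure D3:**
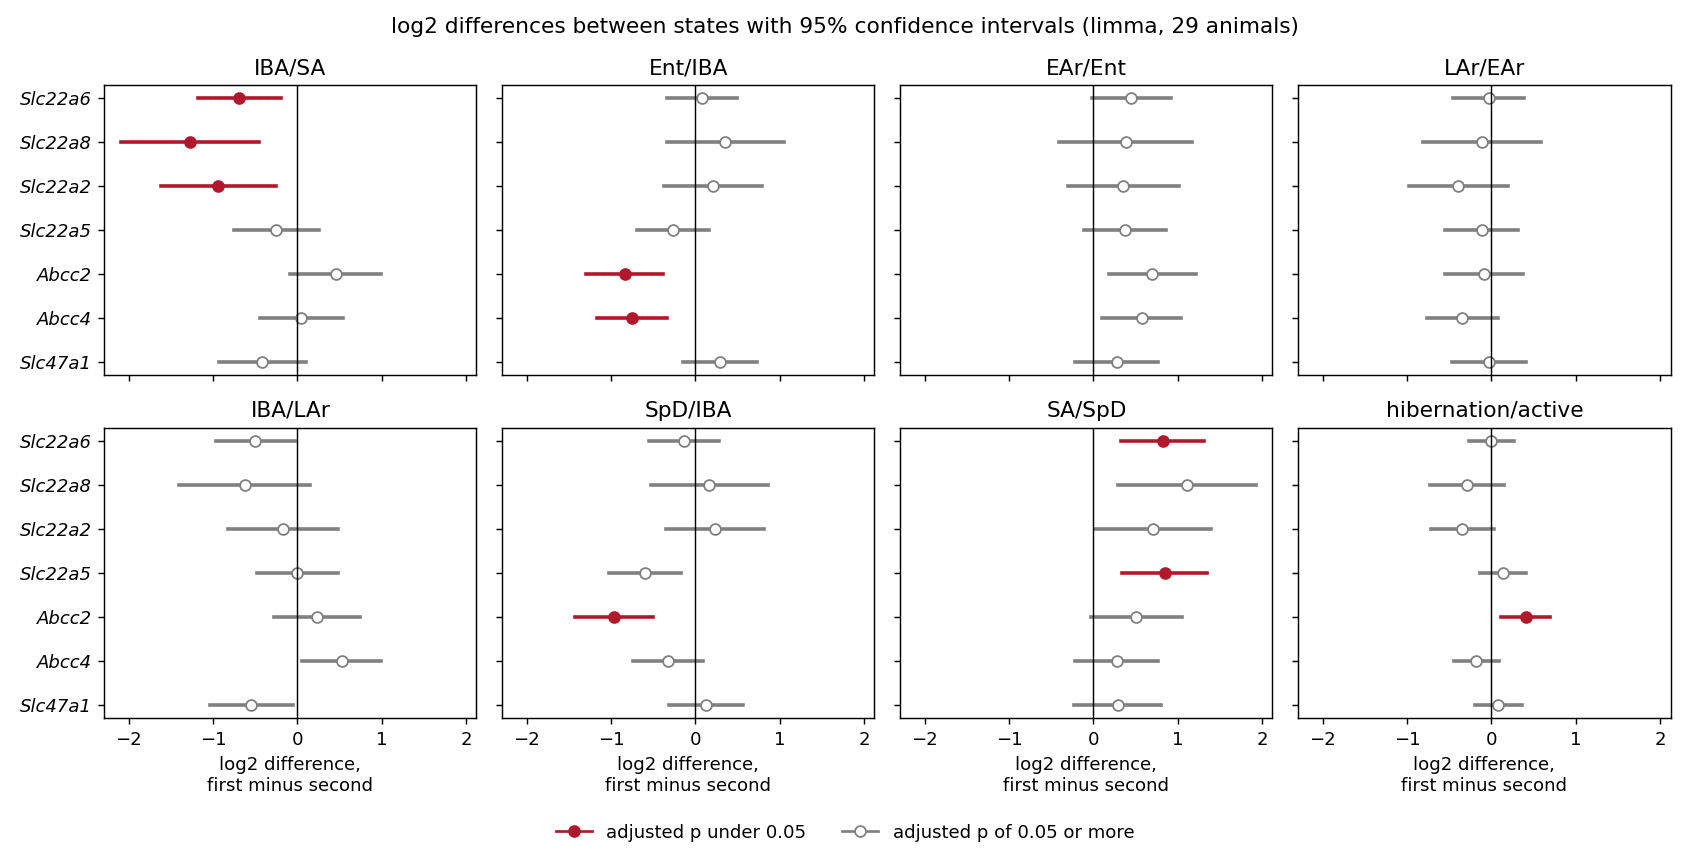
Log2 differences, first state minus second (x axis), with 95% confidence intervals from the limma fit of 29 animals, for 7 transporters (rows) and 8 comparisons (panels). Red marks an adjusted p under 0.05, which holds for Slc22a6, Slc22a8 and Slc22a2 in IBA/SA, Abcc2 and Abcc4 in Ent/IBA, Abcc2 in SpD/IBA, Slc22a6 and Slc22a5 in SA/SpD, and Abcc2 in hibernation/active.

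Between the 2 active states, OCTN2 and OAT1 were higher in SA than in SpD. OCTN2 (Slc22a5) was at 11.83, 11.91, 12.37 and 12.47 in SA and at 10.64 (K84), 11.06 (K130), 11.51, 11.59 and 12.29 (K9) in SpD. K9 lay among the SA animals and the other 4 SpD animals were below all of them. The fitted difference was 0.85 (SE 0.24, 1.80 times, adjusted p = 0.0307). The means, 12.14 in SA and 11.42 in SpD, lay closer together than this fit with sex and library kit terms gives.

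OAT1 (Slc22a6) in SpD was at 13.56 (K130), 14.40 (K84), 15.00, 15.13 and 15.46 (K9). K9 was above every SA animal and K130 and K84 were well below them. The fitted difference of 0.82 (SE 0.24, 1.77 times, adjusted p = 0.0310) includes those 2 low animals. Here too the means, 15.32 in SA and 14.71 in SpD, lay closer together than the fitted difference. The other 5 transporters had differences from 0.28 (Abcc4) to 1.11 (Slc22a8, adjusted p = 0.0699), so all 7 were positive in the 29 animals, with a median of 0.71 against -0.01 over all genes. Without K130 as well, 5 were positive and Slc47a1 (-0.20) and Abcc4 (-0.05) were negative, with a median of 0.30. This comparison shares the 4 SA animals with IBA/SA. The 2 calls stand against 5.47% of all genes called higher in SA.

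Both calls were lost without K130 (Slc22a6 difference of 0.40, adjusted p = 0.281, and Slc22a5 0.71, adjusted p = 0.163) and in all 31 animals (0.62, adjusted p = 0.246, and 0.67, adjusted p = 0.189). The share of all genes called in either direction also dropped, from 10.5% in the 29 animals to 0.739% without K130 and to 0.972% in all 31. With no library kit term in the fit, neither was called. Both were also lost without K84, K139 or K140, and that of Slc22a6 also without K138 or K141. The proximal tubule list had 5 of 19 markers higher in SA, against 5.47% of all genes, and a mean of 13.97 to 14.47 in the SpD animals other than K130.

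Over the seasonal comparison, the mean of the 4 hibernation states against the mean of SA and SpD, MRP2 (Abcc2) was the 1 transporter that passed, 0.41 higher in hibernation (SE 0.14, 1.33 times, adjusted p = 0.0285), against 16.6% of all genes called higher. OCT2 (Slc22a2) had a difference of -0.34 (SE 0.18, adjusted p = 0.144) and OAT3 (Slc22a8) of -0.29 (SE 0.21, adjusted p = 0.313). In the 28 animals without K130 these calls turned over, with Slc22a2 (-0.54, adjusted p = 0.00381) and Slc22a8 (-0.51, adjusted p = 0.0213) lower in hibernation and Abcc2 (0.34, adjusted p = 0.0690) outside the threshold. In the 30 animals without K130 alone, Slc22a2 (-0.47, adjusted p = 0.0431) and Abcc4 (-0.33, adjusted p = 0.0441) were called lower, and Slc22a8 (-0.43, adjusted p = 0.107) and Abcc2 (0.40, adjusted p = 0.104) were not called. In all 31 animals Abcc2 was called alone (0.47, adjusted p = 0.0432). The call of Abcc2 was also lost without K84, K138 or K141. The marker lists moved in this comparison too, with 9 of 19 proximal tubule markers lower in hibernation and 1 higher, 3 of 5 S3 markers lower, 3 of 6 injury markers higher and 6 of 16 markers of other cells lower, against 16.8% of all genes called lower. Their part in the result was not tested.

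The efflux pumps of the lumen side differed within the hibernation states. MRP2 (Abcc2) was at 11.52, 12.10, 12.10, 12.15 and 12.45 in IBA and at 10.65, 11.04, 11.29, 11.58 and 11.59 in Ent. K104, the lowest IBA animal, lay just below the 2 highest Ent animals, and the other 4 IBA animals were above all of them. The fitted difference was -0.84 (SE 0.22, 0.560 times, adjusted p = 0.0159).

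MRP4 (Abcc4) was at 11.37, 11.51, 11.67, 11.80 and 11.86 in IBA and at 10.37, 10.88, 10.91, 11.02 and 11.27 in Ent. The 2 groups did not overlap. Abcc4 was lower in Ent by a difference of -0.75 (SE 0.20, 0.594 times, adjusted p = 0.0173). These were 2 of the 7 transporters, against 7.61% of all genes called lower in Ent, and the other 5 ranged from -0.26 (Slc22a5) to 0.35 (Slc22a8), with none past the threshold.

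Both states hold animals of both experiments. Within experiment 1 the mean difference was -1.13 for Abcc2 and -0.83 for Abcc4 (3 animals against 3), and within experiment 2 it was -0.40 and -0.64 (2 against 2). The call of Abcc4 held in all 31 animals (adjusted p = 0.0296) and in the 28 without K113, K137 and K130 (adjusted p = 0.00717). It also held in the 30 without K130 alone (adjusted p = 0.0180). The call of Abcc2 held in the 28 animals (adjusted p = 0.0124), but not in all 31 (adjusted p = 0.0676) or in the 30 (adjusted p = 0.0636). Without K8, the lowest Ent animal for both, neither was called (-0.68 and -0.60, adjusted p = 0.0502 and 0.0545).

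In SpD, after the last bout, MRP2 was also lower than in IBA. The SpD animals had Abcc2 at 10.38 (K84), 10.71 (K130), 11.38, 11.41 and 11.61, of which K9, the highest, was above K104 and below the other 4 IBA animals. The difference was -0.97 (SE 0.22, 0.512 times, adjusted p = 0.00644), the 1 call among the 7 transporters against 5.42% of all genes called lower in SpD. It was called in all 31 animals (-0.97, adjusted p = 0.0346), in the 28 without K130 (-0.84, adjusted p = 0.0185) and with each of the 10 animals left out in turn, but not in the 30 animals without K130 alone (-0.84, adjusted p = 0.0885). It was -0.65 within experiment 1 and -1.44 within experiment 2. OCTN2 (Slc22a5) had a difference of -0.60 (SE 0.21, adjusted p = 0.0602). The uptake carriers and MATE1 had differences from -0.13 (Slc22a6) to 0.23 (Slc22a2), and each of these 4 was positive within experiment 1 (0.36 to 0.75) and negative within experiment 2 (-0.87 to -0.31), whose 2 SpD animals are K84 and K130.

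MRP2 in both comparisons, and MRP4 in Ent against IBA, did not share the direction of the proximal tubule list. In SpD against IBA, MRP4 had a difference of -0.33 (adjusted p = 0.317), and of -0.12 in the 28 animals without K130 (adjusted p = 0.724). The list had 18 positive differences of 19 in Ent against IBA, with none past the threshold in limma and 1 at an unadjusted p under 0.05. In SpD against IBA 3 of its markers were higher and none lower, with 15 positive differences, against 834 of 12863 genes called higher. Centering on that list moved the median of all genes to -0.27 in Ent/IBA and -0.36 in SpD/IBA. On that scale Abcc2 was at -1.10 (adjusted p = 0.0402) in Ent/IBA and -1.31 (adjusted p = 0.000512) in SpD/IBA. Abcc4 was at -1.02 (adjusted p = 0.0744) in Ent/IBA and -0.68 (adjusted p = 0.145) in SpD/IBA. Against 7.61% and 5.42% of all genes called lower, the injury list had 1 of 6 markers lower in Ent/IBA and 5 of 6 in SpD/IBA. Among them Havcr1 was at -1.42 in Ent/IBA (adjusted p = 0.0151) and at -2.39 in SpD/IBA (adjusted p = 0.000255), and its part in the result was not tested.

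Across the torpor bout and during rewarming, no transporter passed in limma. From Ent to EAr all 7 had positive differences, from 0.28 (Slc47a1) to 0.70 (Abcc2) with a median of 0.38 against 0.00 over all genes. Without K130, which is in neither group, they ran from 0.08 (Slc47a1) to 0.62 (Abcc2) with a median of 0.28, and Slc22a8 and Slc22a2 were at 0.10 and 0.11. The proximal tubule list had 18 positive differences of 19 from Ent to EAr, with a median of 0.31. Abcc2 (adjusted p = 0.478) and Abcc4 (0.57, adjusted p = 0.561) were at an unadjusted p under 0.05, and 0.257% of all genes were called. MRP2 in EAr was at 11.47, 11.49, 11.93, 11.95 and 12.57, which overlapped both Ent and IBA. From EAr to LAr all 7 had negative differences in the 29 animals, from -0.39 (Slc22a2) to -0.03 (Slc47a1), none of them at an unadjusted p under 0.05, against 0.575% of all genes called.

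From LAr to IBA, the end of rewarming, 18.0% of all genes were called and none of the 7 transporters was, with 3 at an unadjusted p under 0.05. MRP4 (Abcc4) was at 10.79, 10.89, 10.97, 11.28 and 11.32 in LAr, all below the 5 IBA animals, with a difference of 0.53 (SE 0.23, adjusted p = 0.104). It was called in the 28 animals without K130 (0.64, adjusted p = 0.0319) and not in the 30 without K130 alone (0.59, adjusted p = 0.0890). Of the 3 inner medulla markers 2 were also higher in IBA than in LAr, Slc5a3 (1.58, adjusted p = 0.0128) and Slc14a2 (3.13, adjusted p = 0.0443), and their part in the result was not tested. K113, at 11.37, was the highest LAr animal and overlapped IBA, and in all 31 animals the difference was 0.47 (adjusted p = 0.204). The other 2 at an unadjusted p under 0.05 were MATE1 (-0.54, adjusted p = 0.110) and OAT1 (-0.50, adjusted p = 0.125), both with lower values in IBA. Without K171 (IBA), 2 transporters were called in this comparison.

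The 7 transporters fell along a range in how closely they followed the proximal tubule list from animal to animal. Over the 29 animals the list's mean and OAT3 (Slc22a8) had a Pearson r of 0.92 (Spearman rho 0.87), OCT2 (Slc22a2) 0.86 (rho 0.74), OAT1 (Slc22a6) 0.81 (rho 0.70) and MATE1 (Slc47a1) 0.76 (rho 0.61). These 4 had adjusted permutation p of 2.33e-05 to 5.25e-05 for r and 3.5e-05 to 0.000927 for rho over the 7 relations, with 100000 resamples, where an unadjusted p of 1e-05 is the smallest that can be given. The permutations took no account of state, sex or experiment, so differences shared between states also enter these p. Relations within a state are not given. OCTN2 (Slc22a5) had an r of 0.41 (rho 0.28, adjusted permutation p = 0.0400 and 0.203), MRP4 (Abcc4) 0.34 (rho 0.26, adjusted permutation p = 0.0851 and 0.203) and MRP2 (Abcc2) 0.21 (rho 0.00, adjusted permutation p = 0.278 and 0.995).

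Without K104 and K130, the 2 animals farthest from the median of the list, r was 0.85 for Slc22a8, 0.77 for Slc22a2, 0.63 for Slc22a6 and 0.52 for Slc47a1, whereas that of Slc22a5 dropped to 0.18 and rested on those animals. Within experiment 1 (9 animals) and experiment 2 (20 animals), r was 0.87 and 0.94 for Slc22a8, 0.84 and 0.87 for Slc22a2, 0.73 and 0.84 for Slc22a6, and 0.84 and 0.75 for Slc47a1. It was -0.18 and 0.60 for Slc22a5, -0.13 and 0.34 for Abcc2, and 0.12 and 0.47 for Abcc4.

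**Figure D4:**
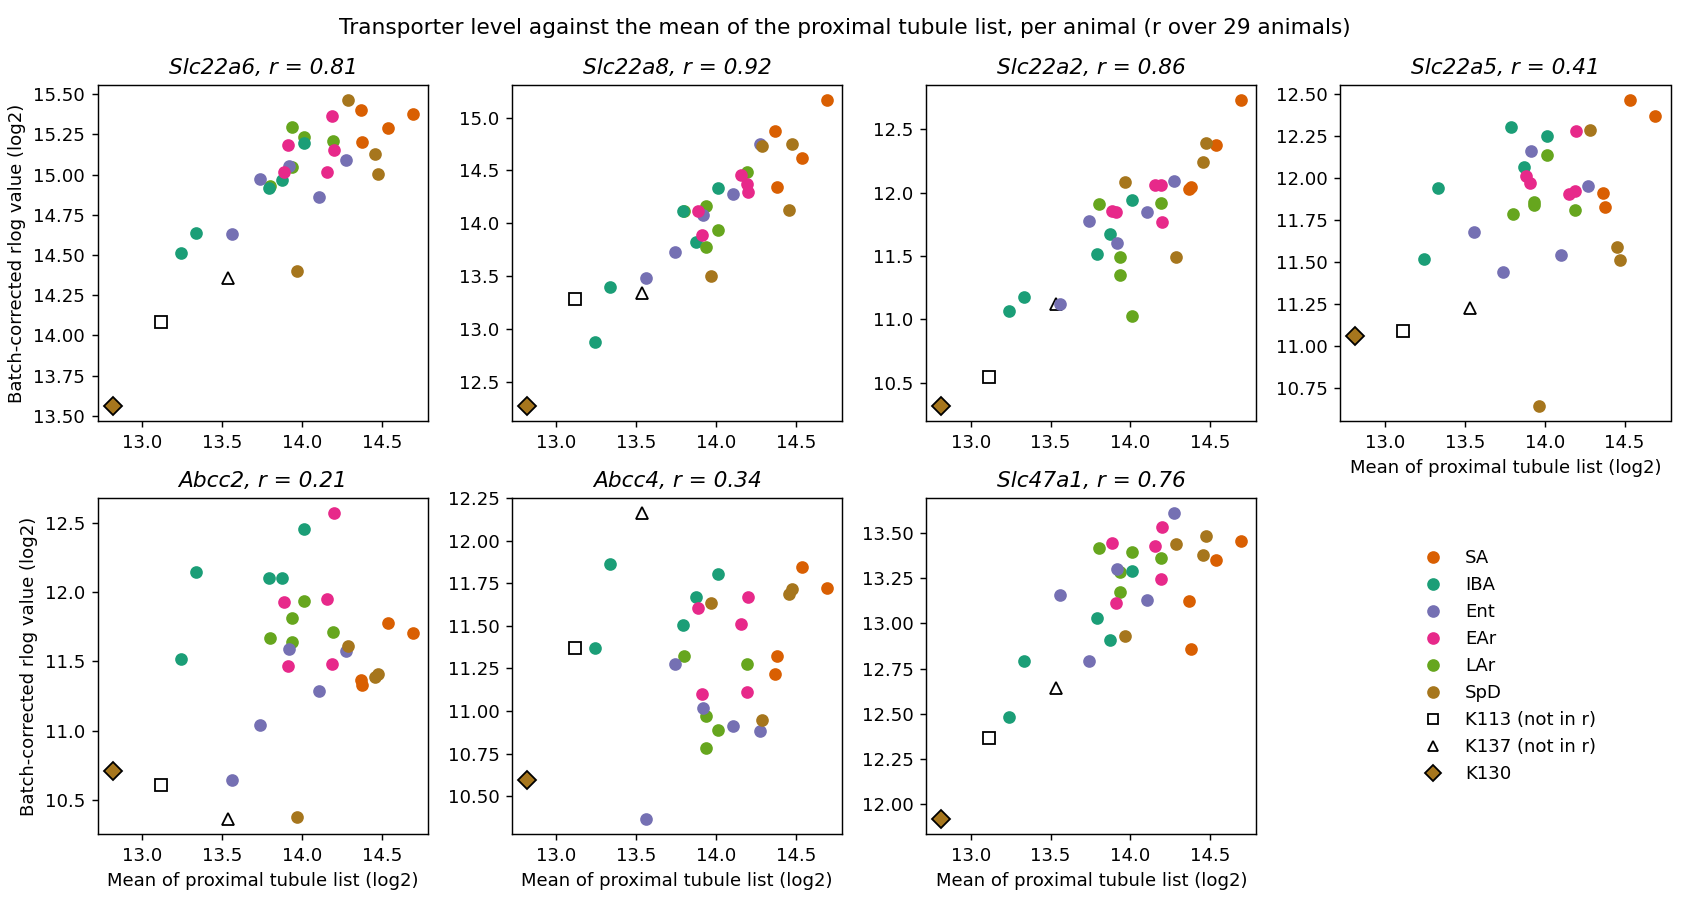
Batch-corrected rlog value of each transporter (y axis, log2) against the mean of the 19 proximal tubule markers (x axis, log2), 1 point per animal, colored by state, with Pearson's r over 29 animals in each title. Slc22a8, Slc22a2, Slc22a6 and Slc47a1 follow the list from K130 at the low end to SA animals at the high end, and Abcc2 and Abcc4 spread at all levels of it.

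The genes whose pattern was most like the mean of the 7 standardized transporters over the 29 animals were Xpnpep2 (r = 0.90), an aminopeptidase of the brush border, Slc13a3 (0.89), the dicarboxylate carrier of the blood side, Hnf4a (0.88), a transcription factor of the proximal tubule, Dner (0.87) and Shmt2 (0.87), the mitochondrial serine hydroxymethyltransferase. Without K130 these ran from 0.78 to 0.85. None of the 5 passed across states, with adjusted p from 0.0697 (Dner) to 0.342 (Shmt2).

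The genes that set the driving gradients were measured in full, 9 of 9, and 3 were lower in IBA than in SA, against 12.5% of all genes. Slc26a6, an apical anion exchanger (-0.71, adjusted p = 0.00565), and Slc9a3, the apical sodium-proton exchanger NHE3 (-0.66, adjusted p = 0.0307), had the lowest adjusted p across states, 0.00256 and 0.00671, and Slc4a4, the sodium bicarbonate cotransporter, was also lower in IBA (-1.26, adjusted p = 0.00303). Slc13a3 had a difference of -0.69 (adjusted p = 0.157). Atp1b1 had a difference of -0.04, and Fxyd2, with the highest adjusted p across states of the list (0.832), had 0.02. The seasonal comparison had 3 of the 9 lower in hibernation, Slc26a6 (-0.55), Slc9a3 (-0.61) and Atp1b1 (-0.20), against 16.8% of all genes.

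Of 46 other organic ion transporters, 24 were in the table and 12 differed across states, 3 of them at the threshold of 0.001, against 46.1% and 9.34% of all genes, so both shares are near the background. In IBA against SA, 6 were lower, against 12.5% of all genes, and 1 higher. Slc16a9, a monocarboxylate transporter family member (-1.18, adjusted p = 0.000180), and Abcg2, the urate and drug efflux pump BCRP (-1.73, adjusted p = 0.000131), had the lowest adjusted p across states, 2.63e-05 and 0.000334, while Abcc6 had the highest, 0.675. Abcg2 was higher in Ent than in IBA (0.93, adjusted p = 0.0121) and in SpD than in IBA (1.21, adjusted p = 0.00157), the comparisons in which Abcc2 was lower. In the seasonal comparison 4 of the 24 were higher and 6 lower in hibernation, against 16.6% and 16.8% of all genes. The share called higher is near the background.

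Of 18 regulators of these carriers, 17 were measured and 6 differed across states, below the share of all genes (46.1%). The nuclear receptors Nr1i2 (PXR, -0.93, adjusted p = 0.00195), Nr1h4 (FXR, -0.79, adjusted p = 0.00456) and Nr1i3 (CAR, -0.96, adjusted p = 0.00575) were lower in IBA than in SA, with Foxo1 (-0.37, adjusted p = 0.0360) and the scaffold protein Pdzk1 (-0.68, adjusted p = 0.0144). Cebpa had the lowest adjusted p across states (0.0127), was lower in SpD than in IBA (-0.45, adjusted p = 0.0464) and had a difference of 0.01 in IBA/SA. Rxra had the highest adjusted p across states (0.710). Hnf4a had a difference of -0.35 in IBA/SA (adjusted p = 0.266).

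Around OCTN2, 10 of 11 genes of carnitine handling were measured and 8 differed across states, against 46.1% of all genes. The carnitine synthesis genes Tmlhe (-0.62, adjusted p = 0.000938) and Aldh9a1 (-0.54, adjusted p = 0.00255) were lower in IBA than in SA, as were Slc16a9, which also has a place in the list above, Cpt2 (-0.34, adjusted p = 0.0369) and Crat (-0.22, adjusted p = 0.0379). Cpt1a, the liver-type carnitine palmitoyltransferase, was higher (0.79, adjusted p = 0.0176). In the seasonal comparison Cpt1a, Slc25a20 and Crot were higher in hibernation (0.49, 0.50 and 0.35) and Slc16a9 and Aldh9a1 lower (-0.70 and -0.21). Slc22a4, the neighbour of Slc22a5 on the chromosome, had the highest adjusted p across states of the list (0.366) and a difference of -0.63 in IBA/SA (adjusted p = 0.106).

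Markers of the cells around the transporters also differed across states, in 10 of 19 genes for the proximal tubule, 3 of 5 for its S3 segment and 4 of 6 for tubule injury, against 46.1% of all genes. The share in the proximal tubule list is near that background. Aqp1 (adjusted p = 0.00559) and Ass1 (0.00778) led the proximal tubule list and Hpd (0.472) was its last. The S3 markers Slc5a1 (SGLT1, adjusted p = 0.00169) and Slc7a13 (0.00235) were lower in IBA than in SA (-0.87 and -1.82), and Atp11a had the highest adjusted p of that list (0.580). Havcr1 (adjusted p = 0.000537) and Sox9 (0.00186) led the injury list and Lcn2 (0.225) was its last. The other lists had Aqp2 of 2 collecting duct principal cell markers (adjusted p = 0.0243, Hsd11b2 0.631), Atp6v0d2 of 2 intercalated cell markers (0.00687, Atp6v1g3 0.214) and Slc5a3 and Slc14a2 of 3 inner medulla markers (0.0109 and 0.0335, Akr1b1 0.497) past the threshold. The markers of the loop of Henle (Slc12a1 0.0949 and Umod 0.120), the distal convoluted tubule (Slc12a3 0.285), endothelium (Kdr 0.0620 and Nrp1 0.117), fibroblasts (Plac8 0.200 and S100a4 0.241) and macrophages (C1qa 0.103 and C1qb 0.154) were outside it.

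No transporter differed between males and females in limma, with 0 of the 7 at an unadjusted p under 0.05 and differences (male minus female) from -0.15 (Slc22a6) to 0.17 (Abcc2, adjusted p = 0.864), against 0.218% of all genes called. The seasonal difference was also compared between the sexes, by an interaction term. None of the 7 and none of the 12863 genes passed, with 506 genes at an unadjusted p under 0.05. Slc22a2 had a seasonal difference of 0.11 in males and -0.63 in females (interaction 0.74, adjusted p = 0.948), and Abcc4 of 0.21 in males and -0.48 in females (interaction 0.69, adjusted p = 0.686).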

How the data were processed

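The deposited table holds values for 31 kidneys. The authors made poly(A) libraries, and their processing used cutadapt for trimming, HISAT2 to take out mitochondrial reads and Salmon with the annotation HiC_Itri_2. The authors turned gene sums into rlog values with DESeq2, kept genes with at least 7 in most animals of a group, and took out the difference between experiments with limma. The deposited values are therefore on a log2 scale, and rlog shrinks differences of low genes.

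Here limma 3.58.1 (R 4.3.3) was fitted to all 12863 genes in 29 animals, without K113 and K137, with state, sex and library kit as terms, an intensity trend and Benjamini-Hochberg adjustment over all genes within each comparison. This does not count the degree of freedom already spent on the batch. A call is an adjusted p under 0.05, and tests were 2-sided. The transporters and lists were chosen with earlier results of these data known. From each list, written from general knowledge, the 2 genes with the lowest and the 1 with the highest adjusted p across states were named by rule, and further genes after their values were seen. Some genes of the lists are not reported here. The 5 genes most like the transporters were ranked by Pearson's r. The model was tested on simulated data. No sequences or coordinates are given, since the RefSeq annotation used for names (mIctTri1.hap1) is of another assembly. Figures were drawn with matplotlib 3.10.9.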

Additional observations from a re-analysis of the deposited data

Results flagged for a closer look

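Of 56 groups of 4 to 6 animals tested for a value that stands apart (Dixon's test, which chance passes in about 1 of 20 groups), 7 did so, 2 of them in the 29 animals. These 2 were high values of OCTN2 (Slc22a5), 12.28 in K158 (EAr, next highest 12.01) and 12.14 in K111 (LAr, next highest 11.86). The others were values of K113 or K137, which the study left out as outliers on these same data. The rate that chance gives does not apply to those.

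With K113 and K137 included, K113 stood apart from the other LAr animals for Slc22a5 (11.09, next lowest 11.79), Slc22a6 (14.09, next lowest 14.93), Abcc2 (10.61, next lowest 11.64) and Slc47a1 (12.37, next lowest 13.17). K137 stood apart from the other SA animals for Slc22a6 (14.35, next lowest 15.20). The inner medulla list was 3.55 and 3.33 above that of the other animals of the state in K113 and K137, and its part in these values was not tested.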

How the results depend on the processing

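Of 14 settings other than leaving out an animal, SpD/IBA of Abcc2 kept its call in 12, Ent/IBA of Abcc4 in 10 and of Abcc2 in 9, the 3 calls of IBA/SA in 8 each and the 2 of SA/SpD in 7 each, and the seasonal call of Abcc2 kept it in 10 of 13. The main counts of transporters called were 2 across states, 2 in SA/SpD, 3 in IBA/SA, 2 in Ent/IBA, 1 in SpD/IBA, 1 in hibernation/active and 0 elsewhere. All 31 animals gave 0 in SA/SpD, 0 in IBA/SA and 1 in Ent/IBA. Without K113, K137 and K130, SA/SpD had 0, IBA/LAr 1 and hibernation/active 2. With only K130 left out, across states had 1, SA/SpD 0, IBA/SA 0, Ent/IBA 1, SpD/IBA 0 and hibernation/active 2, Slc22a2 and Abcc4 in place of the Slc22a2 and Slc22a8 of the 28 animals. No library kit term gave 0 in SA/SpD and 2 in IBA/SA, without Slc22a6. Experiment 2 alone gave 5 across states, 6 in SA/SpD, 1 in IBA/SA, 0 in Ent/IBA, 3 in SpD/IBA and 4 in hibernation/active. It holds only 2 animals each of IBA, Ent and SpD, those of SpD being K84 and K130. Animal weights gave 4 across states, 0 in SA/SpD, 1 in IBA/LAr, 2 in SpD/IBA and 2 in hibernation/active. Centering on the proximal tubule list gave 5 across states, 0 in SA/SpD, 1 in Ent/IBA, 1 in IBA/LAr, 2 in SpD/IBA and 4 in hibernation/active, and there IBA/SA of Slc22a2 (0.0686) and Slc22a6 (0.32) reversed, under a median of all genes of 1.03. A threshold of 0.001 gave 0 in each. Fits of only the groups compared gave 4 in SA/SpD, 0 in IBA/SA, 0 in Ent/IBA and 1 in LAr/EAr. The share of all genes called also moved with the setting. In IBA/SA it was 22.9% in the 29 animals and 9.07% in the 30 without K130 alone. Centering on the proximal tubule list moved it from 33.4% to 43% in hibernation/active and from 13.1% to 0.0155% in Ent/IBA. For experiment 2 alone, animal weights and no library kit term it is not given, so those counts have no background beside them. The causes were not tested.

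With 1 animal left out, counts ran from 2 to 5 across states, 0 to 3 in SA/SpD, 0 to 3 in IBA/SA, 0 to 2 in Ent/IBA, 0 to 2 in IBA/LAr, 1 to 2 in SpD/IBA and 0 to 2 in hibernation/active, and stayed at 0 in EAr/Ent, LAr/EAr and between sexes. Across states there were 5 called without K167 or K171 and 4 without K155 or K9, and SpD/IBA had 2 without K104 or K9. The interaction with sex gave 0 in all 31 animals and without K130, alternatives chosen after seeing the data. No paired analysis was possible because the groups share no replicate numbers. Depth is unknown, so what it limits cannot be given.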
